A study of Mus musculus with 36 samples.

Results

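The genes Hoxa3, Hoxa4, Hoxa5, Hoxd1, Hoxd3 and Hoxd4 were described in mouse epiblast stem cells (EpiSC), pluripotent cells of the postimplantation epiblast, that had been exposed to retinoic acid (RA) and to small molecules. They are the genes of the anterior, 3′ part of the HoxA and HoxD clusters that were taken here, chosen by the gene symbol given for each probe of the array, whatever its level. Of the 45281 probes on the array, 9 carried 1 of these 6 symbols, 4 of them for Hoxa3 and 1 for each other gene. A probe was called detected on an array when its detection p, its rank among the array's negative controls, was under 0.05, and probes detected on at least 3 of the 36 arrays were tested. Of the 9 probes 7 were tested, among 23999 in all, and both untested probes, ILMN_1258410 and ILMN_1237475 of Hoxa3, were detected on none of the 36 arrays.

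RNA was measured on 36 Illumina mouseWG-6 v2 arrays that fall into 3 schedules. In the first, 5 µM RA was given for 36 h and a treatment for 24 h (11 arrays, 10 compounds and Mock). In the second, 5 µM RA was given for 24 h and a treatment for 36 h (12 arrays, 10 compounds, Mock and CM). In the third, no RA was given (Mock for 36 h) and the treatment lasted 24 h (13 arrays, 10 compounds, Mock and CM on 2 arrays). CM is medium conditioned by mouse embryonic fibroblasts and Mock is basal medium, and all cells had been maintained on Matrigel in fibroblast-conditioned medium with bFGF and Activin. The compounds were Rapamycin at 100 nM (an mTOR inhibitor), PF573228 at 250 nM (a focal adhesion kinase inhibitor), Dorsomorphin dihydrochloride at 2 µM (a BMP receptor and AMPK inhibitor), BAY 11-7082 at 25 µM (an inhibitor of the NF-kB pathway) and Forskolin at 50 µM (an activator of adenylyl cyclase). The others were BAPTA-AM at 10 µM (a calcium chelator), Docetaxel at 500 pM (a microtubule stabiliser), Wortmannin at 50 nM (a PI3 kinase inhibitor), Purmorphamine at 2 µM (a Smoothened agonist) and SU5402 at 2 µM (an FGF receptor inhibitor). Each combination had 1 array except CM without RA, and the labels do not say whether arrays came from separate cultures, so p-values measure the spread between these arrays, which may be technical. The schedules differ in the time with a treatment as well as in RA, and each slide held 1 schedule except that the Mock array without RA shared a slide with 5 arrays of RA for 36 h, so slide and schedule cannot otherwise be told apart.

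Hox genes code for homeodomain transcription factors that give cells their position along the body axis. Within a cluster, genes nearer the 3′ end are generally activated earlier and further forward in the embryo, and RA, acting through nuclear receptors that bind repeats of a short half-site, is a known activator of the 3′ genes in hindbrain and in differentiating stem cells. In the mouse, Hoxa3 is needed for organs of the pharyngeal region such as the thymus, Hoxa4, Hoxd3 and Hoxd4 for cervical vertebrae, Hoxa5 for the lung and the neck to thorax transition, and Hoxd1 acts in sensory neurons. In the RefSeq annotation the extents of Hoxa4 and Hoxa5 lie within that of Hoxa3, and the extent of Hoxd4 within that of Hoxd3. The positions of the probes in these transcripts were not used here.

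The 250 bases before the annotated start of transcription were available from RefSeq (GRCm38.p6) for 5 of the 6 genes, all but Hoxa4. They were searched on both strands for the half-sites AGGTCA and AGTTCA, for direct repeats of these with 1, 2 or 5 bases between, and for the letters TGATTNAT. Hoxd3 and Hoxd4 are shown because they differed most between the RA schedules and each held 1 match, and Hoxa5 is shown beside them because its level did not differ between them beyond its spread. Capitals mark AGGTCA on the reverse strand, read as TGACCT on the printed strand.
Hoxd3, chr2:74711743-74711992, plus strand: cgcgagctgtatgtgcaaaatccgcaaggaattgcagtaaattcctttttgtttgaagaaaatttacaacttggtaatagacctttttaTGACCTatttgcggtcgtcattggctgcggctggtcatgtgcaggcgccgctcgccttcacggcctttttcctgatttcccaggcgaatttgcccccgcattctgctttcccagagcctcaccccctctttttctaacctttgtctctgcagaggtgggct
Hoxd4, chr2:74721728-74721977, plus strand: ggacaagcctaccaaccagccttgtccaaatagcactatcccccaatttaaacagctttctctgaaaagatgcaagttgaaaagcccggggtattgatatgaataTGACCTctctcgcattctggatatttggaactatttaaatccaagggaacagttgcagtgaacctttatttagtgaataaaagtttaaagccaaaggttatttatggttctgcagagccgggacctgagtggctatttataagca
Hoxa5, chr6:52204588-52204837, minus strand: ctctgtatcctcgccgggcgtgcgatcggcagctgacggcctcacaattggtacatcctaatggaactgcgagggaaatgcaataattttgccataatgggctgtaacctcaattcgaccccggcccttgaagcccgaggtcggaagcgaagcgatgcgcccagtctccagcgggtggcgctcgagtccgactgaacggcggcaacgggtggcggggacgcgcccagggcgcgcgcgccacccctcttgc
Counted from the start of transcription, the match begins at position -161 in Hoxd3 and at -145 in Hoxd4. The promoters of Hoxa3, Hoxa5 and Hoxd1 held no match to any of these motifs, and none of the 5 held a direct repeat. AGGTCA was present in 14.0% and AGTTCA in 11.8% of the 32851 mouse promoters of the same length, TGATTNAT in 2.82%, and direct repeats in 0.067% or fewer for each spacing. G and C made up 40.4% of the bases in Hoxd4 and 49.2% in Hoxd3, against 63.6% in Hoxa5, 64.8% in Hoxa3 and 71.6% in Hoxd1, with a median of 52.4% over all promoters (quartiles 45.2% and 61.2%).

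Signal intensities averaged 336 to 692 per array and 37.1% to 43.1% of probes were detected on an array. Levels below are log2 intensities after background correction and quantile normalisation, on which an array's detection limit lay between 5.06 and 5.39, and levels of different probes were not compared. Markers of the cell type were checked against the labels: all 8 EpiSC markers (among them Pou5f1, Nanog, Fgf5 and Otx2) were detected on all 13 arrays without RA, with a mean level of 10.6 to 11.1 over the list. With compounds, their mean level was 6.63 to 7.63 where RA lasted 36 h and 7.31 to 7.69 where it lasted 24 h. Of 10 markers of fibroblasts, the source of the conditioned medium, Dcn and Thy1 were detected on all 13 arrays without RA, Col1a1 on 12, Col1a2 and Twist2 on 4 each, and the other 5 on none. Over all 36 arrays Lum, Postn and Pdgfra were detected on none and Pdgfrb on 1. The list's mean level was 5.47 to 5.82 without RA, 5.48 to 6.25 after RA for 24 h and 5.87 to 6.45 after RA for 36 h. 3 arrays stood apart from the others of their schedule in genes of this report. They are the Docetaxel array without RA and the Mock and CM arrays with RA for 24 h. The difference between the RA schedules, the Docetaxel comparison and correlations within schedules are given with and without the arrays concerned. Other changes and correlations are mostly given with them only.

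Hoxd4, Hoxa5, Hoxd3 and Hoxa4 were at or near the limit of detection without RA and high on every array with RA for 36 h, and Hoxa3 rose slightly. For the first 4 genes the 11 arrays with RA lay above all 13 without it. Without RA, Hoxd4 lay between 4.46 and 7.09 with a median of 4.67 and was detected on 2 of 13 arrays. With RA for 36 h its level was 11.56 to 12.04 with a median of 11.76. The change was 6.87 on the log2 scale (SE 0.231, limma adjusted p = 2.27e-19), or 117-fold, and it was positive in 11 of 11 matched treatments (4.95 to 7.15).

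Hoxa5 ranged from 4.54 to 7.72 without RA (median 5.08) and was detected on 6 of those 13 arrays. Its 11 levels with RA for 36 h were 11.65 to 12.34, with a median of 12.02. It rose by 6.49 (SE 0.201, adjusted p = 4.81e-20), an 89.7-fold change. Hoxd3 rose by 6.01 (SE 0.154, adjusted p = 8.74e-22), from a median of 4.53 (4.37 to 5.45, detected on 1 of 13 arrays) to a median of 10.57 (10.35 to 10.75). As deposited, before normalisation, the intensity of Hoxd4 was -13.1 to 102 without RA and 2374 to 3791 with RA for 36 h, so the folds rest on a base that was mostly within background.

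Hoxa4 was not detected on any of the 13 arrays without RA, where its level was 4.52 to 5.04, and was detected on all 11 with RA for 36 h, at 8.12 to 9.16 (median 8.54). This was at least 10.1-fold higher with RA, the mean with RA being set against each array's detection limit or its own value where that was higher (adjusted p = 2.65e-20, positive in 11 of 11 treatments). The lead probe of Hoxa3, ILMN_1234863, which has the highest mean of its 4, was detected on none of 13 arrays without RA and on 8 of 11 with it. Its levels were 4.54 to 5.14 without RA, and from 4.76 upwards with a median of 5.48 after RA for 36 h, so the groups overlapped. By the same measure the change was 1.11-fold. The arrays with RA that did not detect the probe kept their own values, so this is not a strict bound. It was positive in 10 of 11 treatments (limma adjusted p = 0.000439 for the fitted change).

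Hoxd1 did not pass the test, at 0.03 (SE 0.104, adjusted p = 0.842, 95% interval -0.19 to 0.24), and was detected on 1 of 13 arrays without RA and 1 of 11 with RA for 36 h. The other tested probe of Hoxa3, ILMN_1255920, which the platform annotation does not tie to a curated RefSeq transcript, gave -0.17 (SE 0.0888, adjusted p = 0.105). In all, 5 of the 7 tested probes rose and none fell with RA for 36 h, while 26% of all tested probes rose, 29% fell and 55% changed in either direction. The median change of the 6 lead probes was 4.95 on the log2 scale, against -0.03 over all probes tested. With the 2 genes that were undetected without RA, Hoxa4 and Hoxa3, set against the detection limit the members' median was 4.68. Within the slide that held both conditions, 5 arrays with RA for 36 h were set against 1 Mock array without RA, so the spread in that fit comes from the 5 arrays alone and the lone array is assumed to vary like them. There the changes were 6.34 for Hoxd4 and 5.76 for Hoxa5 (limma adjusted p = 9.4e-06 and 2.27e-05). Hoxd3, Hoxa4 and the lead probe of Hoxa3 were not detected on that Mock array. Hoxd3 and Hoxa4 were at least 41.5-fold and 13.1-fold higher with RA. The lead probe of Hoxa3, detected on 3 of the 5 arrays with RA, gave 1.12-fold by the same measure and did not pass the test. On the authors' deposited log2 values, made by variance stabilisation, the same 5 probes passed but the changes were smaller, at 3.53 for Hoxd4, 3.58 for Hoxa5 and 2.47 for Hoxd3. Markers of cell types moved with these changes: 6 of 6 tested neural progenitor markers rose with RA for 36 h (median change 2.24), 7 of 8 EpiSC markers fell and Sox2 rose. Of 6 tested fibroblast markers 5 rose (median of the 6, 0.91) and Thy1 fell, and of 5 extraembryonic endoderm markers 2 rose and 1 fell. Their part in the Hox changes was not tested. In bulk RNA, more cells with a transcript and more transcript per cell cannot be told apart.

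**Figure D1:**
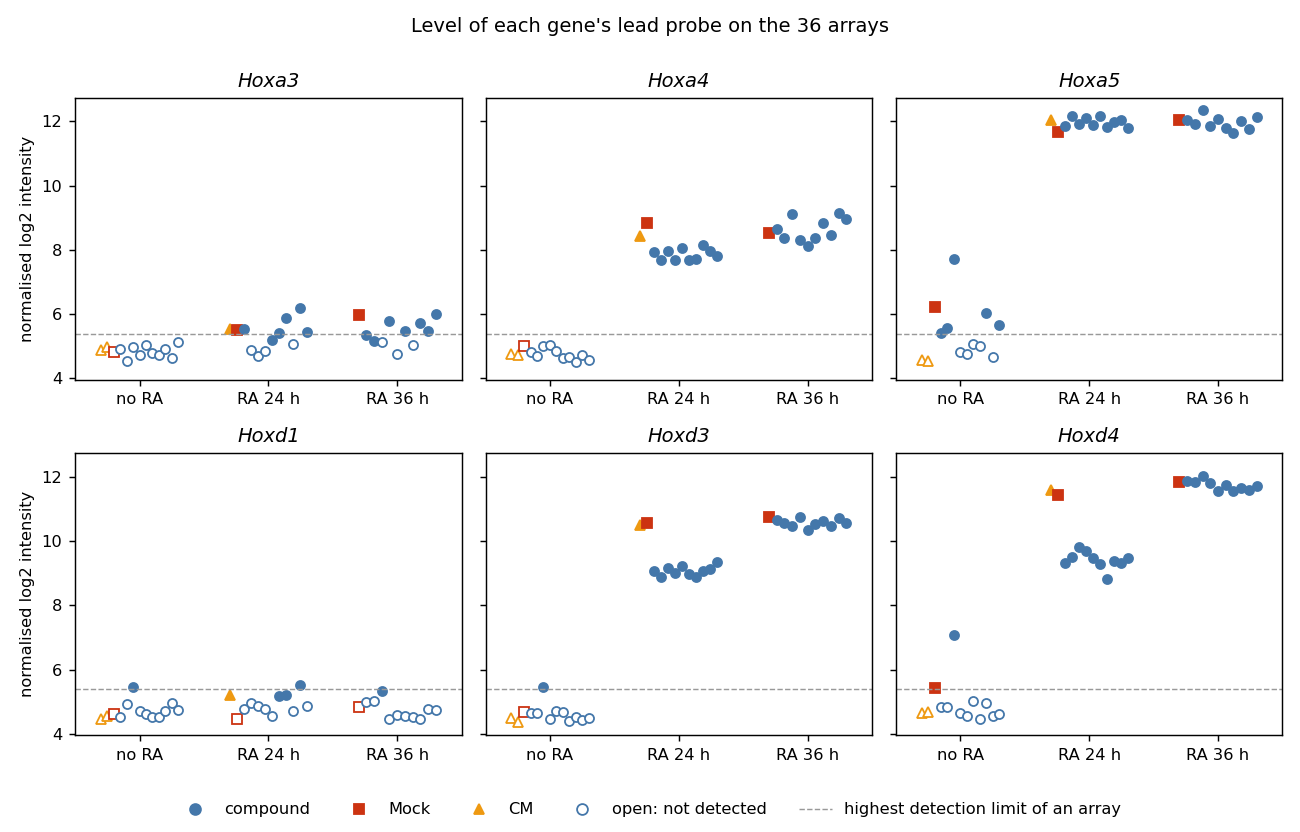
Normalised log2 intensity (vertical axis) of the lead probe of each gene on each of the 36 arrays, by schedule, with compounds as circles, Mock as squares, CM as triangles and open symbols for arrays on which the probe was not detected. Hoxa4, Hoxa5, Hoxd3 and Hoxd4 lie higher on every array with RA than on any without it, and with RA for 24 h the Mock and CM arrays lie above the 10 compound arrays for Hoxa4, Hoxd3 and Hoxd4.

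After RA for 24 h, Hoxa5 did not differ from its level after 36 h beyond its spread, while Hoxd4, Hoxd3 and Hoxa4 were raised to a lower level on the compound arrays. The rises over no RA were 6.52 for Hoxa5 (SE 0.192, limma adjusted p = 1.3e-20), 4.84 for Hoxd4 (SE 0.221, adjusted p = 2.16e-16) and 4.72 for Hoxd3 (SE 0.147, adjusted p = 4.42e-20). Hoxa4 was at least 6.52-fold higher (limma adjusted p = 4.4e-19 for the fitted change). The lead probe of Hoxa3, detected on 8 of 12 arrays, gave 1.04-fold by the same measure (adjusted p = 0.0017 for the fitted change). The other tested probe of Hoxa3 was lower, at -0.30 (adjusted p = 0.00346), opposite in sign to the lead probe, with all but 2 of its 25 values in these schedules below detection. Hoxd1 gave 0.20 (adjusted p = 0.0884) and was detected on 4 of 12 arrays, those of CM, PF573228, Purmorphamine and SU5402. Thus 5 of 7 probes rose and 1 fell, against 28.3% and 32% of all tested probes, 60.2% in either direction.

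The RA schedules were then compared with each other. Hoxd4 was lower by 2.03 on the log2 scale with RA for 24 h than for 36 h (-2.03, SE 0.231, adjusted p = 2.55e-07), which is 4.08-fold. Hoxd3 fell by 1.29 (SE 0.154, adjusted p = 4.5e-07), or 2.45-fold, and Hoxa4 by 0.65 (SE 0.117, adjusted p = 9.35e-05), or 1.56-fold. These 3 of 7 probes were lower and none was higher, against 17.6% and 19.8% of all tested probes, 37.4% in either direction. Hoxa5 differed by 0.03 (95% interval -0.38 to 0.45, adjusted p = 0.915), the lead probe of Hoxa3 by -0.10 (-0.38 to 0.18) and Hoxd1 by 0.17 (-0.04 to 0.38). On the 20 compound arrays of these schedules and 10 without RA, leaving out Mock and CM, the differences were larger, at -2.33 for Hoxd4, -1.49 for Hoxd3 and -0.77 for Hoxa4, and 0.01 for Hoxa5. Between the same schedules 5 of 6 neural progenitor markers were lower with RA for 24 h (median -1.62), 4 of 6 fibroblast markers were lower and 1 higher (median -0.80), and 4 of 8 EpiSC markers were higher and 1 lower. The part of these cell types in the difference was not tested.

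By the fit, the order of levels for Hoxd4, Hoxd3 and Hoxa4 was RA for 36 h, RA for 24 h, no RA. Each step passed the test, in a fit that takes the same shift for all treatments. The step between the RA schedules was that of the compound arrays. With Mock it was -0.42 for Hoxd4 and -0.20 for Hoxd3, and 0.30, the opposite sign, for Hoxa4. For Hoxa5 and the lead probe of Hoxa3 the RA schedules did not differ beyond their spread. For Hoxd1 no neighbours in the order passed the test. For Hoxd4 and Hoxd3 the compound arrays of the schedules did not overlap: Hoxd4 lay at 8.82 to 9.83 with RA for 24 h and 11.56 to 12.04 with RA for 36 h, and Hoxd3 at 8.88 to 9.35 and 10.35 to 10.74. For Hoxa4 they met at 8.16 and 8.12.

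**Figure D2:**
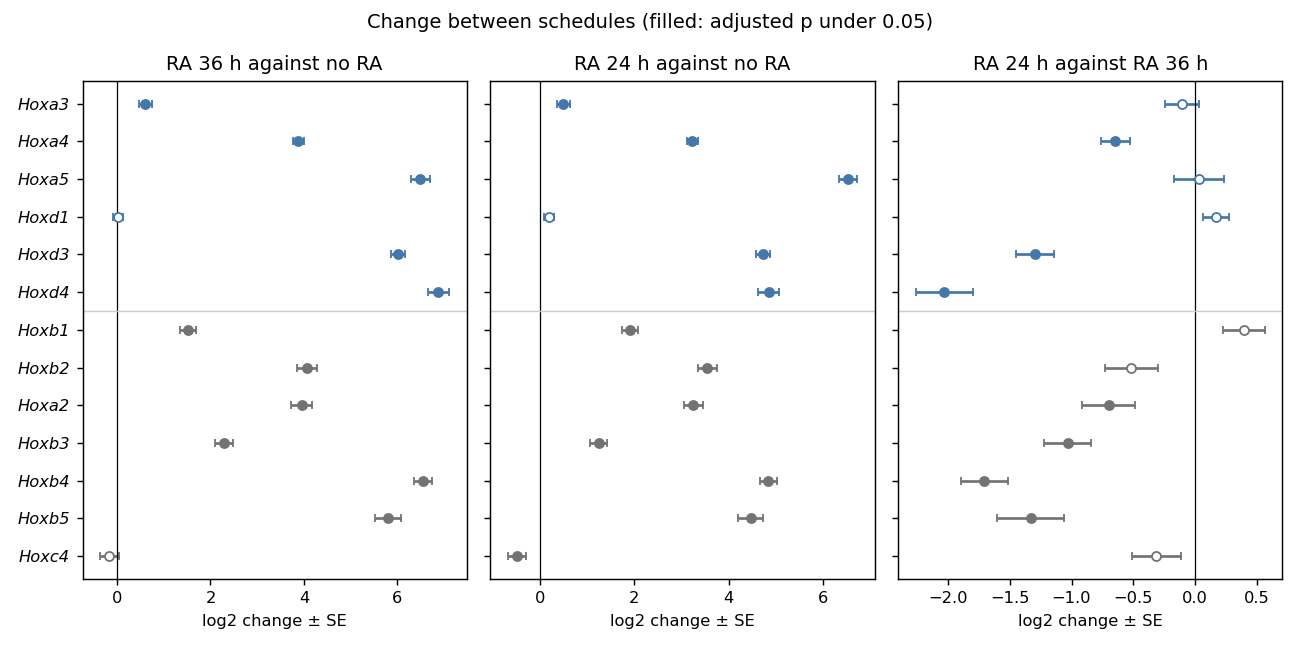
Log2 change with its SE (horizontal axis) for the lead probes of the 6 genes (blue, above the line) and of the 7 other tested Hox genes of groups 1 to 5 (grey), in 3 comparisons of schedules, with filled symbols for adjusted p under 0.05. Hoxa4, Hoxb3 and the lead probe of Hoxa3 were not detected without RA, so their distances from it are fitted values and not folds. In the right panel Hoxd4 lies furthest left at -2.03 and Hoxa5 at 0.03.

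The lower levels with RA for 24 h were those of the compound arrays. Hoxd4 read 11.44 for Mock and 11.60 for CM in this schedule, and 8.82 to 9.83 on the 10 compound arrays (median 9.43). Hoxd3 read 10.55 and 10.50 for Mock and CM against 8.88 to 9.35, and Hoxa4 was 8.84 and 8.43 against 7.68 to 8.16. For these 3 genes all 10 compound arrays lay below both. Hoxa5 was 11.66 on Mock and 12.03 on CM, and 11.78 to 12.17 with compounds, so these groups overlapped.

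Set against the mean of Mock and CM, the compound arrays were lower by 4.31-fold for Hoxd4 (-2.11, SE 0.342, limma adjusted p = 4.31e-05), 2.73-fold for Hoxd3 (-1.45, SE 0.157, adjusted p = 3.72e-08) and 1.70-fold for Hoxa4 (-0.76, SE 0.189, adjusted p = 0.00682). Hoxa5 gave 0.13 (95% interval -0.66 to 0.91). Mock and CM had 1 array each in this schedule. The spread therefore comes from the compound arrays and the CM pair without RA, and the controls are assumed to vary like them. The 3 calls, all lower, compare with 3.85% of tested probes called lower and 7.93% called in either direction. Both controls were already known to stand apart, as stated above, so the calls describe that difference and are no separate evidence of it. With slide as a block within the schedule, the limma adjusted p was 3.37e-05 for Hoxd4, 2.3e-05 for Hoxd3 and 0.01 for Hoxa4. Each slide held 5 compounds and 1 of Mock or CM. That layout fixed in advance that the estimates were the same to 2 decimals. Against Mock alone they were -2.03, -1.48 and -0.97.

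Markers of other cell types moved with this difference. The 8 EpiSC markers averaged 6.49 in the Mock sample and 5.98 in the CM sample but 7.31 to 7.69 on the compound arrays, and 5 of 8 were called higher with compounds, Pou5f1 by 2.85. The mean level of 7 neural progenitor markers was 7.93 to 8.28 on Mock and CM and 6.29 to 6.92 with compounds, with 3 of the 6 tested called lower. Fibroblast markers stood at 5.64 to 6.25 on Mock and CM and 5.48 to 5.82 with compounds. Of the 6 tested, 2 were called lower with compounds, Col1a1 (-1.01) and Col1a2 (-1.24), and Thy1 was called higher (1.09), with a median of -0.47. Extraembryonic endoderm markers were at 5.42 to 6.06 and 5.18 to 5.81, with none of 5 called. The part of cell composition in the Hox difference was not tested.

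With RA for 36 h no member probe was called between compounds and Mock, where 0.00417% of all tested probes were called and no member probe had an unadjusted p under 0.05. Hoxd4 gave -0.11, Hoxd3 -0.18 and Hoxa5 -0.08, on 1 Mock array, and the interval for Hoxa5 was -1.15 to 0.98. The interval for Hoxd4 was -1.06 to 0.83, and the lead probe of Hoxa3 gave -0.58 (-1.31 to 0.14). Nor was a member probe called without RA, where 0.696% of all were (0.488% higher, 0.208% lower), and none had an unadjusted p under 0.05 there. The difference between the schedules in the gap from compounds to Mock was itself tested, with 1 Mock array in each schedule and the spread taken from the other groups. Hoxd3 passed, at -1.30 (SE 0.301, adjusted p = 0.0206), while Hoxd4 gave -1.91 (SE 0.655, adjusted p = 0.185) and Hoxa4 -1.07 (SE 0.361, adjusted p = 0.175), so 1 of 7 probes was called, against 1.09% of all (0.567% higher, 0.525% lower). The Docetaxel array that lacked RA is in neither RA schedule, so leaving it out cannot change these estimates. It enters only the pooled spread, and it was chosen after seeing the data. On the authors' deposited log2 values Hoxd4 passed as well (-1.59, adjusted p = 1.93e-05).

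**Figure D3:**
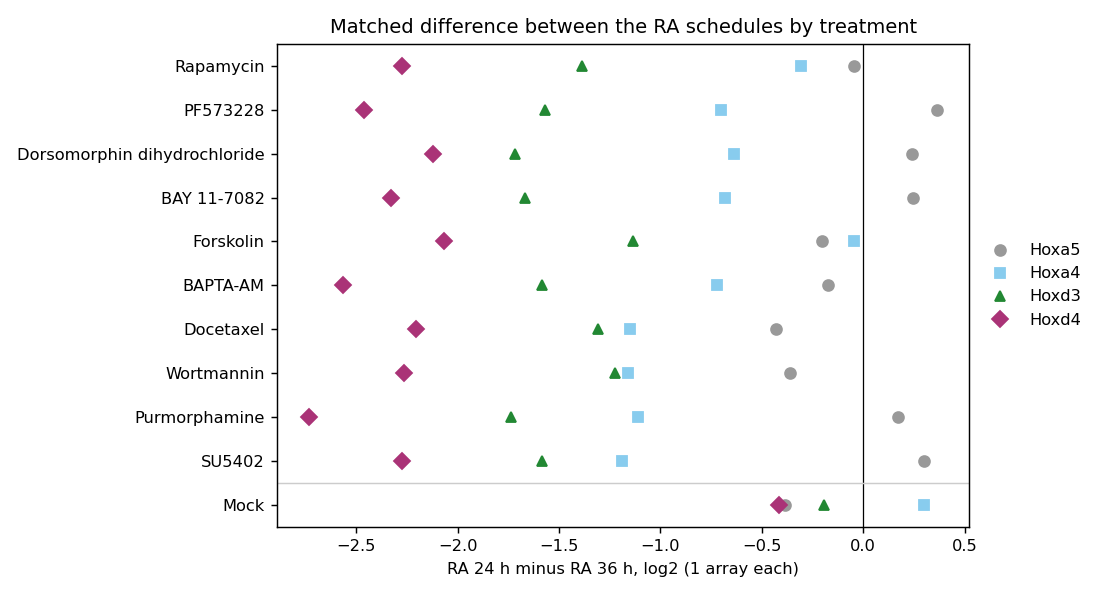
Level with RA for 24 h minus level with RA for 36 h (horizontal axis, log2) for each treatment, 1 array on each side, for Hoxa5, Hoxa4, Hoxd3 and Hoxd4. For Hoxd4 the 10 compounds lie between -2.73 and -2.07 and Mock at -0.42, for Hoxd3 between -1.74 and -1.14 and Mock at -0.20, and for Hoxa5 5 compounds lie on each side of 0.

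Taking compounds one at a time, the difference between RA for 24 h and for 36 h was negative for Hoxd4 and Hoxd3 with all 10. For Hoxd4 it was widest with Purmorphamine (-2.73) and narrowest with Forskolin (-2.07), against -0.42 with Mock. For Hoxa4 the compounds ran from -1.19 with SU5402 to -0.05 with Forskolin, and Mock had the opposite sign at 0.30. For Hoxa5 the range was -0.43 with Docetaxel to 0.37 with PF573228.

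Each compound was compared with the mean of the other 9 over the 3 schedules, 10 comparisons of 7 probes. Docetaxel was the only compound past the test for a member, and for Hoxd4 alone, with a rise of 1.05 (SE 0.217, limma adjusted p = 0.0232). For Docetaxel 0.571% of all tested probes were called, 0.388% as higher, and 0% for each of the other 9 compounds. Its Hoxd4 level was the highest of the 10 compounds in each schedule, at 12.04 with RA for 36 h, 9.83 with RA for 24 h and 7.09 in its absence. The highest of the other 9 stood at 11.88, 9.68 and 5.02. Without the array that lacked RA the difference was 0.40 (adjusted p = 0.178), so the call rests on that 1 array. Docetaxel also gave 0.95 for Hoxa5 (SE 0.282, adjusted p = 0.167) and 0.44 for Hoxd1 (SE 0.144, adjusted p = 0.211). Among the other 9 compounds estimates for Hoxd4 fell no lower than -0.47 (Purmorphamine, SE 0.217, adjusted p = 0.998), and those for the lead probe of Hoxa3 ran from -0.35 with BAY 11-7082 to 0.38 with Wortmannin.

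In the absence of RA, the Docetaxel array carried measurable transcript of 4 of the 6 genes. Hoxa5 was 7.72 there against 4.54 to 6.22 on the other 12 arrays, and Hoxd4 was 7.09 against 4.46 to 5.42. Hoxd3 was 5.45 against 4.37 to 4.73, detected there and on none of the 12, and Hoxd1 was 5.47 against 4.47 to 4.97. Hoxa4 at 5.02 and the lead probe of Hoxa3 at 4.97 were not detected there. The levels of Hoxa5 and Hoxd4 lay below every array with RA.

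Members of other lists were also detected there and above all 12 other arrays, 2 of 8 other Hox genes of groups 1 to 5, 1 of 8 Hox cofactors, 5 of 16 genes of the RA response and none of 24 Hox genes of groups 6 to 13. Hoxb4 was 6.61 against at most 4.84 elsewhere, Hoxb5 7.02 against 6.002, the cofactor Meis1 6.86 against 6.33, and the RA-binding protein gene Crabp2 9.98 against 9.29. Cdx4, a regulator of Hox genes and 1 of 5 Evx and Cdx genes, was 7.55 against 6.43. The other RA response genes counted were Rxrb, Rxrg, Cyp26b1 (5.457 against 5.429) and Aldh1a2 (5.419 against 5.397). Rarb at 7.74 and Cyp26a1 at 8.07 were not above the others, which reached 7.93 and 8.76. Not all genes counted were higher with RA. Medians with compounds after RA for 36 h were 4.601 for Rxrg and 4.692 for Cdx4. On the other 12 arrays without RA their medians were 5.697 and 6.022. The cofactor Meis2 was 10.33, below the median of 10.84. By the same count none of 8 EpiSC and none of 6 extraembryonic endoderm markers, 1 of 7 neural progenitor markers (Dbx1) and 1 of 10 fibroblast markers (Twist2) were above all others. Of 291 probes that rose by at least 2 with RA for 36 h, this array was the highest of the 13 without RA for 96, or 33%, and the Mock array for 48, or 16.5%. The remaining arrays ran from 1.72% to 9.97%. No such share over all tested probes is given here, so whether 33% is particular to these probes is not known. The Mock array, on which Hoxa5 was 6.22 and Hoxd4 5.42, was hybridised on a slide with 5 arrays of RA for 36 h and the Docetaxel array was not. The cause was not tested.

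**Figure D4:**
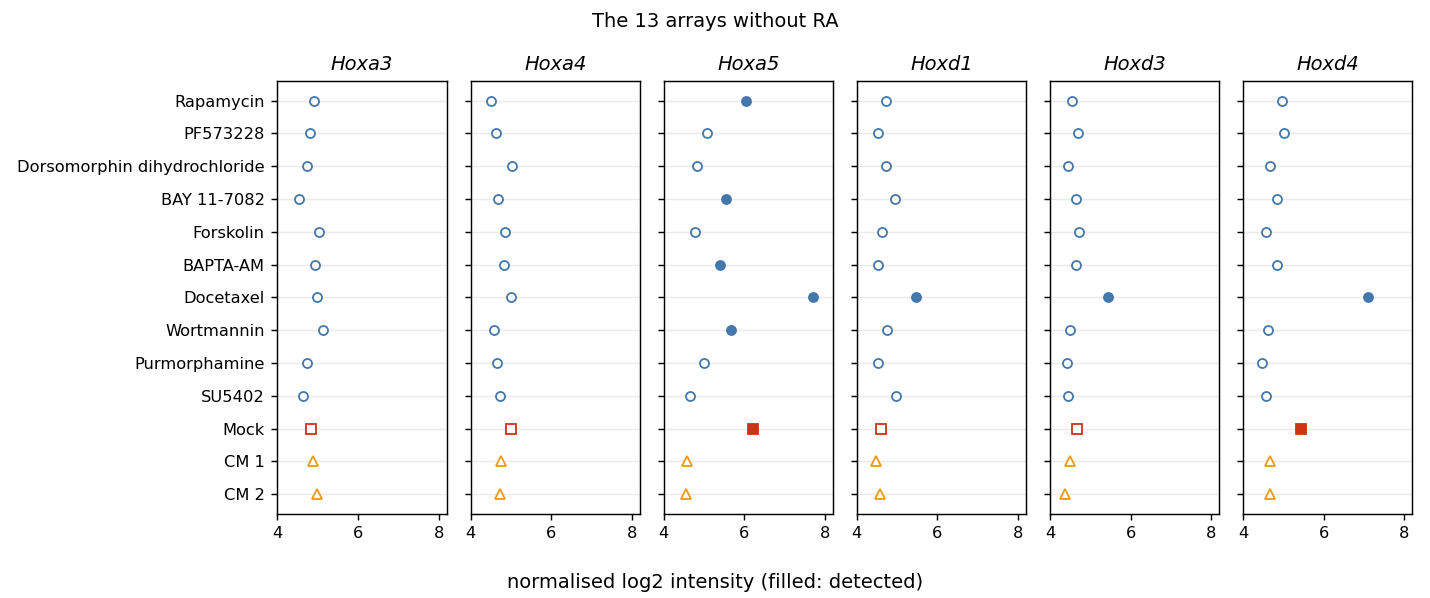
Normalised log2 intensity (horizontal axis) of the 6 lead probes on the 13 arrays without RA, 1 row for each array, with filled symbols where the probe was detected. The Docetaxel array lies to the right of the others for Hoxa5 (7.72), Hoxd4 (7.09), Hoxd1 (5.47) and Hoxd3 (5.45), and Hoxa4 and Hoxa3 are open on every array.

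CM was compared with Mock in the fit used to compare the schedules, which takes the same difference in every schedule. That fit holds the arrays of all schedules, so the Mock array of the RA schedule without CM entered it too. Its estimates are therefore not differences within a schedule. No member probe was called, with 2.63% of all tested probes called (0.871% higher, 1.76% lower) and no member under an unadjusted p of 0.05. Hoxa5 gave -0.76 (SE 0.396, adjusted p = 0.35), with levels of 4.58 and 4.54 for CM and 6.22 for Mock where RA was absent, and of 12.03 for CM and 11.66 for Mock after RA for 24 h. Hoxd4 gave -0.30 (95% interval -1.24 to 0.63).

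Of the other Hox genes of groups 1 to 5, 7 were tested and 6 rose with RA for 36 h, 1 did not pass. Of all tested probes 26% rose and 29% fell. Hoxb4, the paralogue of Hoxa4 and Hoxd4, rose by 6.54 (SE 0.190), Hoxb5 by 5.80, Hoxb2 by 4.06, Hoxa2 by 3.95 and Hoxb1 by 1.51, and Hoxb3, detected on no array without RA, was at least 3.11-fold higher. Hoxc4 gave -0.16 (adjusted p = 0.505). Between the RA schedules, Hoxb4 (-1.71), Hoxb5 (-1.33), Hoxb3 (-1.03) and Hoxa2 (-0.70) were lower with RA for 24 h, while Hoxb2 gave -0.51 and Hoxb1 0.40 without passing. The fifth-group genes therefore differ in their values, 0.03 for Hoxa5 and -1.33 for Hoxb5, a difference that was not tested. With compounds against Mock and CM in the schedule with RA for 24 h, 5 of the 7 were lower, by 1.16 for Hoxa2 to 1.99 for Hoxb5 on the log2 scale. Of all tested probes, 3.85% were called lower in that comparison and 17.6% between the RA schedules.

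More posterior genes, those of groups 6 to 13, have 24 symbols on the array, of which 9 were tested. With RA for 36 h 5 rose, with Hoxb7 at least 7.15-fold, Hoxc6 at least 4.37-fold and Hoxb6 at least 2.78-fold higher, and 2 fell, Hoxa13 (-0.41) and Hoxc10 (-0.38). Hoxa7 was 0.69 higher with RA for 24 h than for 36 h (adjusted p = 0.000355). Of 8 tested Hox cofactors, TALE homeodomain proteins that bind DNA together with Hox proteins, 5 rose and 1 fell, with Meis1 at 5.58. Of 14 tested genes of the RA response, 8 rose and 2 fell, with Crabp2 at 5.39, Rarb, an RA receptor gene that RA induces, at 3.49, and Rarg at -1.74. The counts of these lists stand beside 26% of all tested probes that rose with RA for 36 h and 29% that fell. Rarb and Crabp2 differed by 0.19 and -0.11 between the RA schedules (adjusted p = 0.0449 and 0.631).

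By the correlation of levels over all 36 arrays, with 12366 other genes compared, Hoxd4 was most like Hoxb4 (r = 0.995), Ednrb, an endothelin receptor gene, and Hoxd3, and Hoxd3 was most like Lama1, a laminin gene (r = 0.995), Hoxb4 and Ednrb. Hoxa4 was most like Hoxd3 (r = 0.990), Lama1 and Porcn, and Hoxa5 was most like Crabp2 (r = 0.992), Plxna2 and Grifin. The values describe the schedules, which the arrays share, and for Hoxa3 and Hoxd1, mostly below detection, the highest were 0.72 (Serac1) and 0.61 (Vrk3). With each schedule's mean taken off, over the 30 compound arrays, Hoxd4 was most like Ednrb (r = 0.902), Serpinf1 and Hoxb4, and Hoxa5 most like Serpinf1 (r = 0.868), Hoxd4 and Hoxb4. Without the Docetaxel array that lacked RA these fell to 0.610 for Hoxd4 with Ednrb and 0.561 for Hoxa5 with Serpinf1. Hoxa5 with Hoxd4 went from 0.852 to 0.402, and Hoxd3 with Hoxd4 from 0.80 to 0.339. Hoxa4 with Fam3b was 0.797 and 0.798.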

How the data were processed

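Total RNA was labelled and hybridised to 36 Illumina mouseWG-6 v2 arrays, per the labels' protocols. The authors deposited raw intensity values with a detection p-value beside each, per the file headers; from 30.2% to 36.6% of an array's intensities were negative. They also deposited log2 values, for which variance was stabilised and a robust spline normalisation applied in lumi, per the labels.

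Raw intensities were background corrected with negative controls inferred from the detection p-values, offset by 16, quantile normalised and put on log2 with neqc of limma 3.58.1 (R 4.3.3). The 23999 probes detected (p under 0.05) on 3 or more arrays entered the tests. Schedules were compared in an additive limma model of schedule and treatment, which also gave CM against Mock. Compounds were compared with Mock and CM within schedules by cell means over schedule and class. Each compound was compared with the other 9 on 30 compound arrays. P-values were moderated and Benjamini-Hochberg adjusted over all tested probes, at 0.05. Intervals are 95% limma intervals. Probe genes came from the platform annotation: 34885 probes had 1 symbol, 18 several and 10378 none. The lead probe of a gene has the highest mean over all arrays. Cell type markers, other Hox genes, cofactors and RA response genes are lists from general knowledge; the 3 genes most like a member were named by Pearson correlation. The members and lists were chosen with earlier results of these data known. Where the lower group had no array with the probe detected, a fold is printed only against the detection limit, as a lower bound. For the lead probe of Hoxa3 the higher group also held undetected arrays, so its fold is not a strict bound.

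The methods were tested on simulated data with 200 of 23999 probes changed by 1 on the log2 scale: 100% were recovered for RA 36 h against no RA, 79.5% for compounds against Mock and CM with RA for 24 h, and 90.5% for Docetaxel against the other compounds. Of the calls in each, 6.10%, 6.47% and 6.70% were probes that had not been changed, above the 5% aimed at. The simulated noise was independent between arrays, with the same spread on every array and no slide effect. These rates therefore do not cover slide effects or controls that stand apart. The CM arrays without RA correlated at 0.989, and 0 probes had the same raw value on both. The number of arrays limits the precision. Alternatives were other normalisations, filters, slide as a block, left-out arrays and 1 probe per gene.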

Additional observations from a re-analysis of the deposited data

Results flagged for a closer look

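Of 21 sets of 10 compound arrays, 1 probe in 1 schedule each, 5 held an array whose gap to the nearest other exceeded Dixon's 95% critical value, and chance gives about 1 in 20. Without RA the Docetaxel array was the highest for Hoxa5 (7.72, others 4.66 to 6.04), Hoxd1 (5.47, others 4.52 to 4.97), Hoxd3 (5.45, others 4.42 to 4.73) and Hoxd4 (7.09, others 4.46 to 5.02). These are values of a single array.

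With RA for 24 h the Purmorphamine array was the lowest for Hoxd4, at 8.82 against 9.30 to 9.83. The difference of compounds from Mock differed between the RA schedules for Hoxd3 by -1.30 (limma interaction contrast, adjusted p = 0.0206), with 1 Mock array in each schedule and the spread taken from the other groups. All 10 compound arrays lay below Mock in both, at 8.88 to 9.35 against 10.55 after RA for 24 h and at 10.35 to 10.74 against 10.75 after RA for 36 h.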

How the results depend on the processing

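The counts of member probes called kept within 1.5 times of the main count under most alternatives, and none of the results recomputed reversed its direction. The difference of compounds from Mock between the RA schedules called 1 probe, but 2 with the authors' deposited log2 values and 2 without the Docetaxel array that lacked RA, an array chosen after seeing the data. That array is in neither RA schedule, so it enters this contrast only through the pooled spread. Each compound against the other 9 called 1 probe, but 0 when each compound was set against Mock. The comparison called 0 with slide as a block (other 4 compounds of the slides) and 0 without that Docetaxel array. The cause was not tested. Without CM replicate 1 or 2 the calls were 5 and 5 for RA 36 h over none, 6 and 6 for RA 24 h over none, 3 and 3 between the RA schedules, and 0 and 0 both for compounds against controls in the absence of RA and for CM against Mock. Over all probes, higher and lower calls without replicate 1 were 6216 and 6958, 6761 and 7601, and 4795 and 4263 in the first 3. Without replicate 2 they were 6183 and 6912, 6639 and 7553, and 4675 and 4206. The last 2 had 52 and 16, and 68 and 222, without replicate 1. They had 129 and 44, and 107 and 248, without replicate 2. Without the Docetaxel array 6 and 7 member probes were called for RA for 36 h and 24 h against no RA, with the second tested probe of Hoxa3 at -0.21 (adjusted p = 0.0458) and Hoxd1 at 0.24 (adjusted p = 0.0405) added. Of all tested probes, 6165 were then called higher and 6894 lower for 36 h, and 6685 and 7529 for 24 h. For RA for 36 h against no RA, slide as a fixed block called 4 member probes and 2547 of all probes, and the shared slide alone 4 and 3045, against 5 and 13189; the lead probe of Hoxa3 had adjusted p = 0.33 with the block. Between the RA schedules slide as a random block called 5576 of all probes against 8974. Over all probes, compounds against Mock and CM with RA for 24 h called 828 against Mock alone, and 1904 in the main analysis. With RA for 36 h, compounds against Mock called 125 after quantile normalisation of floored intensities and 121 with no filter, against 1. Without RA, compounds against Mock and CM called 273, 394 and 1521 with the authors' values, floored intensities and slide as a block, against 167. The contrast between schedules called 449 and 455 with floored intensities and no filter, against 262. No paired analysis was possible because the labels number replicates only for the CM arrays without RA; treatment, which the schedules share, is already a term of the schedule fits. Each condition but CM without RA had 1 array, which limits what can be told apart.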
